A study of Mus musculus with 20 samples.

Results

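The 11 libraries described here were made from the BNST (bed nucleus of the stria terminalis) and held little RNA of the choroid plexus and of the lateral hypothalamus. A library was kept if Ttr, which choroid plexus epithelium transcribes to make transthyretin, was at most 100 CPM (a gene's count relative to the total of the library) and Pmch, the precursor of melanin-concentrating hormone, was at most 5 CPM. This rule kept 11 of 20 libraries, 5 of 10 from susceptible mice (2 female, 3 male) and 6 of 10 from control mice (2 female, 4 male). The series studies anxiety in mice after chronic restraint stress, a repeated confinement that prevents free movement. Polyadenylated RNA of female and male mice was sequenced, and the stressed mice carry the label susceptible, with no statement of how susceptibility was decided. No strain, age or duration of stress stands in the labels, and the control mice carry the label control with no further treatment. Whether each library is a different animal is not stated, and p-values therefore reflect variation among libraries that may be technical.

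The BNST is a forebrain nucleus rich in GABA neurons and neuropeptides that relays between amygdala, hypothalamus and brain stem, and it takes part in sustained anxiety and in the control of the stress hormone axis. Stress activates corticotropin-releasing hormone (CRH) neurons, and the glucocorticoids then released act through receptors that are transcription factors, whose well-known target genes include Sgk1, Fkbp5, Tsc22d3 and Per1. The nucleus is small and borders on striatum, thalamus, hypothalamus, fimbria and ventricle, so a dissected piece can carry RNA of these neighbours.

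The values that chose the libraries left a gap on each side of the limits. The highest Ttr among kept libraries was 58.2 CPM in control male 2 and 58.0 CPM in susceptible male 3, and the lowest above the limit was 144 CPM in susceptible male 2. The highest kept Pmch was 0.771 CPM, and the lowest above the limit was 8.51 CPM in susceptible female 4. Of the 9 left-out libraries, 4 exceeded the limit of Ttr only, 2 that of Pmch only and 3 both. Total counts of the kept libraries ranged from 14637636 to 17862840.

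Markers of other neighbouring regions showed that the kept libraries were not free of neighbouring tissue, so they are called here the libraries low in Ttr and Pmch. Oxt, the oxytocin gene of magnocellular hypothalamic neurons, was 0.542 and 0.606 CPM in the 2 susceptible females and 11.8, 7.98 and 19.2 CPM in the 3 susceptible males, while the 6 control libraries had a lowest value of 0.224, a median of 1.82 and a highest of 115 CPM. The control libraries with much Oxt were control male 1 (115 CPM) and control female 4 (55.8 CPM), above all susceptible libraries. Both also held the most Tcf7l2, a transcription factor of thalamic neurons, with 80.7 and 53.8 CPM, against 7.80 to 27.2 CPM in the susceptible libraries.

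Slc17a7, the vesicular glutamate transporter of cortical and hippocampal neurons, was 131 and 671 CPM in susceptible females, and 11.2, 24.2 and 47.7 CPM in susceptible males. In the control libraries its lowest value was 45.0, its median 156 and its highest 621 CPM. The number 5 female of each group held by far the most. The striatal dopamine receptor gene Drd2 was measured in every kept library, at 80.8 to 172 CPM in susceptible and 81.4 to 144 CPM in control libraries. In bulk RNA such as this, fewer cells of a type and less RNA per cell cannot be told apart.

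Markers of subpallial GABA neurons, many of which the neighbouring striatum shares, were measured in every kept library. The summed level of 15 genes of subpallial GABA neurons, which include the GABA-synthesising enzymes Gad1 and Gad2 and the transporter Slc32a1, was 2006 to 3176 CPM in susceptible and 2340 to 2987 CPM in control libraries. Nkx2-1, a transcription factor of ventral forebrain neurons, was 11.5 and 3.63 CPM in susceptible females and 19.3, 19.6 and 16.7 CPM in susceptible males, against 7.25 to 14.2 CPM in controls.

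**Figure D1:**
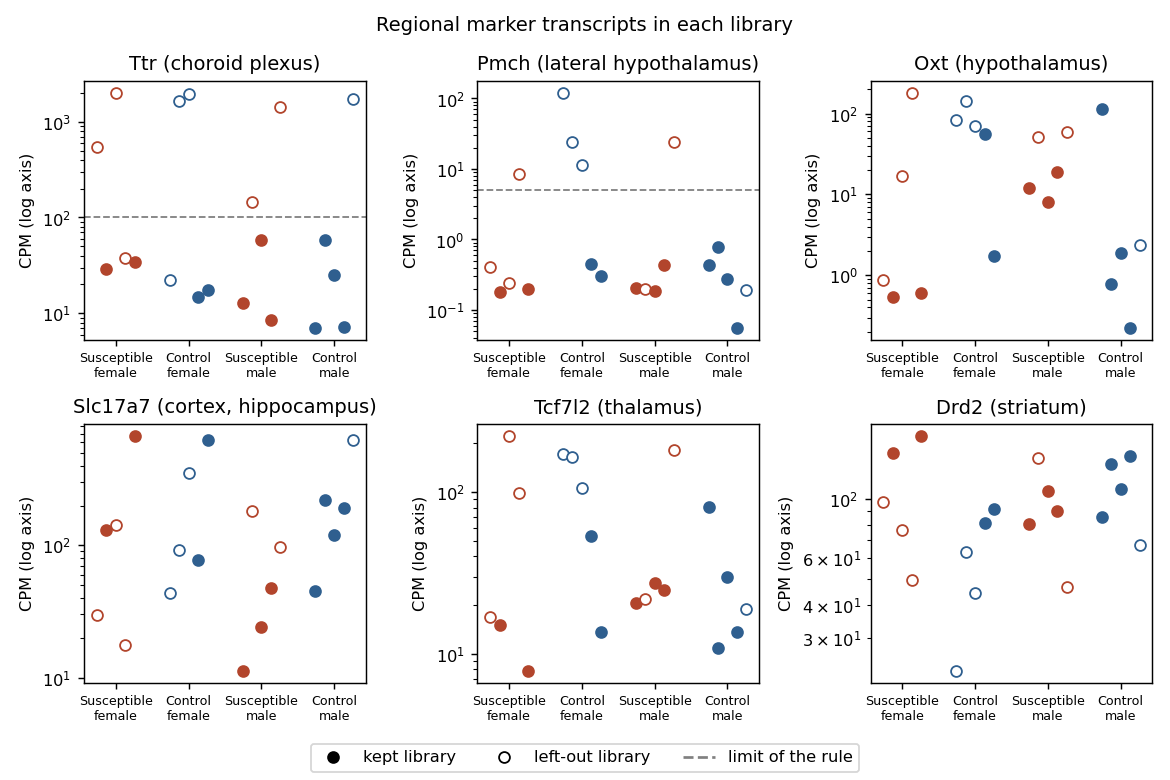
CPM of 6 regional marker genes on a log axis in all 20 libraries, with kept libraries filled, left-out libraries open, susceptible mice in red to the left of controls in blue within each sex, and dashed lines at the limits of the rule for Ttr and Pmch. Kept libraries lie below both lines, while 2 kept controls (male 1, female 4) have Oxt of 115 and 55.8 CPM and 2 kept females (susceptible 5, control 5) have Slc17a7 of 671 and 621 CPM.

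Susceptible mice were compared with control mice over these 11 libraries, with sex as a covariate, to see which transcripts differ with chronic restraint when the libraries richest in choroid plexus and lateral hypothalamus are set aside. Among 14513 genes tested, 0 passed at an adjusted p of 0.05 (0%; the smallest by the edgeR quasi-likelihood test with Benjamini-Hochberg adjustment was 0.807). Before adjustment, 843 genes (5.81%) lay under 0.05, where chance alone gives 726. Of these, 399 (2.75%) had the higher mean in susceptible and 444 (3.06%) in control mice. DESeq2 called 1 gene, Slitrk2, and limma voom with quality weights called 0, with 818 and 2122 genes at an unadjusted p under 0.05. In 125 genes (0.861%) the 2 groups did not overlap, 17 of them higher (0.117%) and 108 lower (0.744%) in susceptible mice. The median absolute log2 fold change was 0.08, with a median standard error of 0.10, and 164 genes differed by more than 1.5-fold and 21 by more than 2-fold.

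The count of 843 moved by more than 1.5 times with some libraries. It was 1340 without control female 4, 530 without control male 3 and 2017 without both control libraries over 50 CPM of Oxt, and edgeR called 0 genes in each case. Long transcripts had slightly higher estimates than short ones: the median log2 fold change was 0.05 in the eighth of genes with the longest exons and -0.06 in the eighth with the shortest, and the part of this trend in single genes was not tested.

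**Figure D2:**
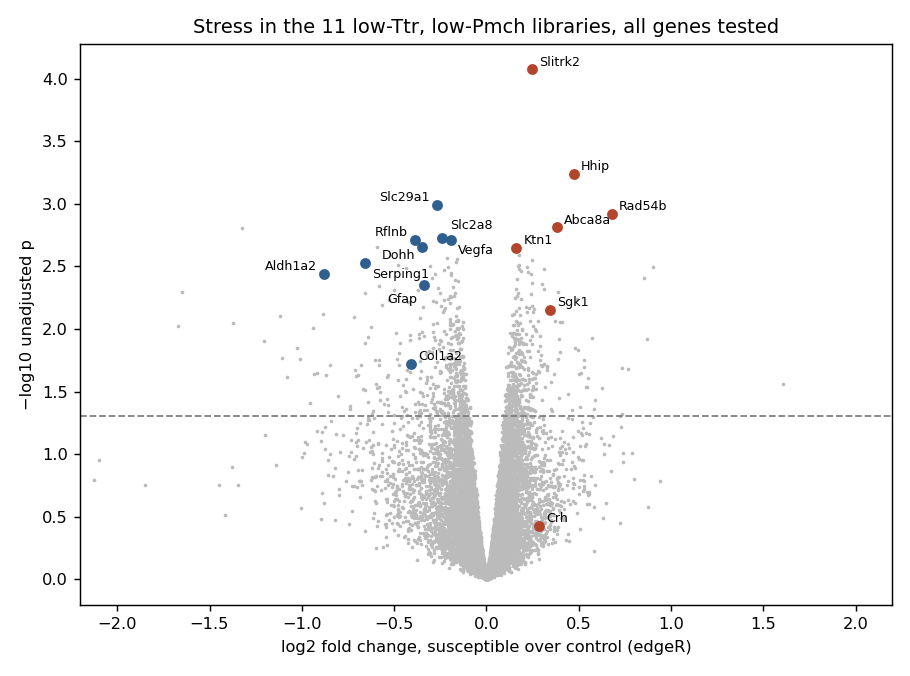
Each point is 1 of 14513 genes, with the log2 fold change of susceptible over control mice on the x axis and the negative log10 of the unadjusted edgeR p on the y axis, and the dashed line marks the 0.05 level. Named genes are red where higher and blue where lower in susceptible mice. Slitrk2 stands alone at the top with a log2 fold change of 0.25, and no gene passed the adjusted threshold in edgeR.

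Slitrk2, a synaptic adhesion protein with leucine-rich repeats, had the smallest p of all genes. It was 47.3 and 48.0 CPM in susceptible females and 43.5, 43.4 and 41.7 CPM in susceptible males, and the control libraries had a lowest value of 35.2, a median of 36.5 and a highest of 42.4 CPM. Within each sex every susceptible library lay above every control library, and the groups met only where susceptible male 4 fell below control female 4. The log2 fold change was 0.25 ± 0.04 (standard error; 95% interval 0.16 to 0.34; chromosome X, 66649318 to 66661393, GRCm38; edgeR adjusted p = 0.807, DESeq2 adjusted p = 0.0271). In the 9 left-out libraries the estimate was 0.02 ± 0.12. The test of the difference between the 2 sets gave 0.21 ± 0.13 (edgeR adjusted p = 0.782).

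The other 4 genes with the smallest p-values on the higher side were Hhip, Rad54b, Abca8a and Ktn1, none of which passed (edgeR adjusted p = 0.807 each). Hhip, which encodes a membrane protein that binds and blocks hedgehog ligands, was 21.7 and 17.1 CPM in susceptible females and 23.2, 22.6 and 20.5 CPM in susceptible males, against a lowest value of 13.2, a median of 14.6 and a highest of 18.3 CPM in controls. Only susceptible female 5 lay within the control range, and the log2 fold change was 0.47 ± 0.10. Ktn1 encodes kinectin, an anchor for kinesin motors on the endoplasmic reticulum. It was 142, 142, 143, 138 and 144 CPM in the susceptible libraries and 125 to 134 CPM in controls, with no overlap (0.16 ± 0.04; chromosome 14, 47648448 to 47739894). The DNA recombination repair gene Rad54b (0.68 ± 0.16) averaged 3.32 ± 0.756 CPM in susceptible and 2.11 ± 0.177 CPM in control libraries (SD, n = 5 and 6). Abca8a, a gene of the ABC lipid transporters, differed by 0.38 ± 0.09.

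On the lower side the 5 smallest p-values belonged to Slc29a1, Slc2a8, Vegfa, Rflnb and Dohh (edgeR adjusted p = 0.807 each). Slc2a8, an intracellular glucose transporter gene, was 16.4 and 16.2 CPM in susceptible females and 18.7, 19.8 and 18.2 CPM in susceptible males, and its lowest, median and highest control values were 20.3, 21.5 and 22.6 CPM. The groups did not overlap, and the log2 fold change was -0.24 ± 0.06 (chromosome 2, 32972990 to 32982083). Dohh, whose enzyme completes the hypusine residue of translation factor eIF5A, also had groups that did not overlap, at 8.97 and 9.69 CPM in susceptible females, 9.36 to 10.5 CPM in susceptible males and 10.5 to 13.5 CPM in control libraries (-0.35 ± 0.09). The gap between them was narrow, since susceptible male 4 and control male 1 both rounded to 10.5 CPM.

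The equilibrative nucleoside transporter Slc29a1, which moves adenosine across membranes, was 22.8 to 26.3 CPM in susceptible and 26.0 to 32.2 CPM in control libraries (-0.27 ± 0.06). The angiogenic growth factor Vegfa was 79.3 to 92.0 CPM in susceptible and 86.0 to 112 CPM in control libraries (-0.19 ± 0.05). Rflnb, a regulator of filamin, differed by -0.38 ± 0.10. Over 27 alternative settings Slitrk2 stayed between 0.14 and 0.26, Ktn1 between 0.10 and 0.18, Slc2a8 between -0.28 and -0.15 and Dohh between -0.40 and -0.18.

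**Figure D3:**
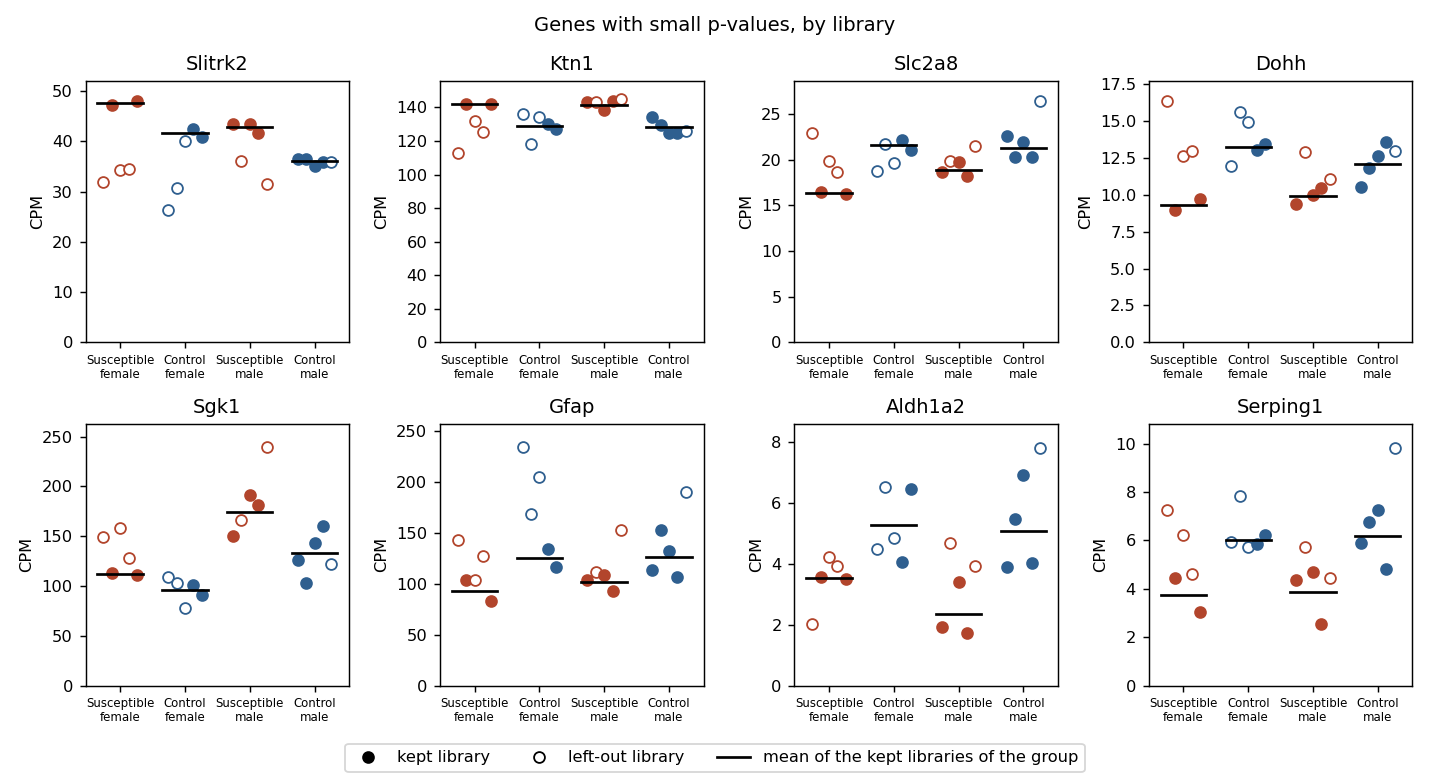
CPM of 8 genes in every library, with susceptible mice in red left of controls in blue within each sex, kept libraries filled, left-out libraries open, and a bar at the mean of the kept libraries of each group. Kept susceptible libraries lie above kept controls for Ktn1 and below them for Slc2a8, Dohh, Aldh1a2 and Serping1, while the open symbols of susceptible and control mice overlap for Slitrk2 and Ktn1.

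Genes of the stress axis were examined whatever their result. Sgk1, the kinase induced by glucocorticoids, was 113 and 111 CPM in susceptible females and 150, 191 and 182 CPM in susceptible males, and its lowest, median and highest control values were 91.1, 115 and 160 CPM. Both susceptible females lay above both control females (101 and 91.1 CPM), and 2 of 3 susceptible males above all 4 control males. The log2 fold change was 0.34 ± 0.11 (95% interval 0.11 to 0.58, unadjusted p = 0.00705 in the edgeR fit across all genes, adjusted p = 0.807; chromosome 10, 21882184 to 21999903). It lay between 0.24 and 0.49 over 27 alternative settings.

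Of the other classical targets none reached an unadjusted p under 0.05. Fkbp5, a co-chaperone that dampens the glucocorticoid receptor, was 35.4, 43.7, 36.8, 42.2 and 61.5 CPM in susceptible libraries and 34.7 to 65.9 CPM in controls (0.05 ± 0.17, 95% interval -0.33 to 0.42). Tsc22d3, which encodes the anti-inflammatory protein GILZ, was 65.5, 51.1, 88.7, 93.6 and 141 CPM in susceptible and 61.0 to 116 CPM in control libraries (0.17 ± 0.19, interval -0.25 to 0.59), and without susceptible male 4 the Tsc22d3 estimate was -0.0084. The groups overlapped widely for both, and the number 4 males of each group were the highest. Per1, a clock gene with glucocorticoid response elements, stood at -0.01 ± 0.17. Of 27 glucocorticoid-responsive genes tested, 18 had higher estimates, with a median of 0.10, against 47.4% higher and a median of -0.01 over all genes. That median was -0.0084 without susceptible male 4, 0.18 without control male 4 and 0.013 without the 2 controls over 50 CPM of Oxt. At an unadjusted p under 0.05, 1 of the 27 was higher, Sgk1, and 0 were lower.

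Neither receptor of these hormones differed from 0 by more than its standard error. The glucocorticoid receptor Nr3c1 was 112, 122, 117, 109 and 101 CPM in susceptible and 96.9 to 122 CPM in control libraries (0.05 ± 0.06, 95% interval -0.09 to 0.19). The mineralocorticoid receptor Nr3c2 stood at 0.06 ± 0.14. The list of corticosteroid receptors and co-chaperones held 11 higher estimates among 14 genes (median 0.06), and 0 of 14 reached an unadjusted p under 0.05.

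Crh itself, the peptide that starts the hormonal stress response, was 3.79 and 3.97 CPM in susceptible females and 9.43, 13.8 and 12.3 CPM in susceptible males. Control females had 9.63 and 4.35 CPM, and control males 8.04, 4.86, 8.40 and 5.54 CPM. Both susceptible females thus lay below both control females and all susceptible males above all control males. Groups without overlap in either sex and in opposite order occurred in 2.44% of all genes. The mean over both sexes, 0.29 ± 0.31, joins estimates of opposite sign. The estimate was -0.77 ± 0.37 in females and 0.82 ± 0.26 in males, and the difference between sexes, -1.60 ± 0.45, did not pass (edgeR adjusted p = 0.277). The binding protein Crhbp stood at -0.33 ± 0.28, the receptor Crhr1 at -0.05 ± 0.08 and the receptor Crhr2 at -0.13 ± 0.27.

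In the list of other BNST peptides and their receptors 14 of 18 genes had lower estimates (median -0.14), while 47.4% of all genes had higher ones. Of these 18, Npy5r and Sst reached an unadjusted p under 0.05, against 3.06% of all genes on the lower side. The female median was -0.28 (4 of 18 higher) and the male median 0.06 (10 of 18 higher). In the left-out libraries 11 of 17 were higher (median 0.14), and without the 2 females over 500 CPM of Slc17a7 the median was -0.038. Somatostatin, Sst, an inhibitory peptide, was 102, 119, 90.3, 118 and 103 CPM in susceptible libraries and 101 to 133 CPM in controls (-0.21 ± 0.08). Control male 2, at 101 CPM, was the single control library within the susceptible range. Npy5r, a receptor of neuropeptide Y, was 6.53 to 8.13 CPM in susceptible and 7.58 to 10.4 CPM in control libraries (-0.31 ± 0.11). Cartpt, the CART peptide precursor, averaged 21.2 ± 8.41 CPM in susceptible and 32.0 ± 10.9 CPM in control libraries (-0.59 ± 0.31). Neurotensin Nts (0.27 ± 0.28), Npy (-0.09 ± 0.17), the oxytocin receptor Oxtr (-0.12 ± 0.15) and the melanocortin receptor Mc4r (-0.21 ± 0.26) lay within 1 standard error of 0.

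The opioid precursors Penk (0.15 ± 0.19) and Pdyn (-0.19 ± 0.21), the tachykinin genes Tac1 (-0.18 ± 0.23) and Tac2 (-0.14 ± 0.65), the PACAP precursor Adcyap1 (-0.20 ± 0.47) and its receptor Adcyap1r1 (-0.05 ± 0.09) also lay within 1 standard error of 0. So did the kinase Prkcd (-0.27 ± 0.44), the estrogen receptor Esr1 (-0.17 ± 0.42) and the neurotrophin Bdnf (-0.04 ± 0.38). Of 12 opioid and tachykinin genes tested, 7 had higher estimates (median 0.035), against 47.4% of all genes, and 0 reached an unadjusted p under 0.05. Aromatase, Cyp19a1, which makes estradiol from androgens, was 0.135 to 0.993 CPM in susceptible and 0.112 to 1.42 CPM in control libraries and was too low to be tested.

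Of 31 immediate early genes, which report recent neuronal activity, 0 reached an unadjusted p under 0.05 over both sexes, and their medians in females and males had opposite signs. Fos, the prototype of the immediate early genes, was 35.5, 34.4, 40.2, 32.7 and 25.5 CPM in susceptible and 13.5 to 51.7 CPM in control libraries (0.02 ± 0.25). Fosb stood at 0.30 ± 0.24 and Egr1 at 0.18 ± 0.25. Of the 31, 14 had higher estimates (median -0.04). In females 24 of 31 were higher (median 0.36), and in males 4 of 31 (median -0.21), against 48.8% and 47.6% of all genes. Of 18 circadian clock genes, 5 had higher estimates (median -0.05). Clock alone reached an unadjusted p under 0.05, at 0.16 ± 0.06, against 2.75% of all genes on the higher side.

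Markers of the meninges and of fibroblasts formed the list with the most genes at small p-values on 1 side. Of 15 tested, 13 had lower estimates, with a median of -0.43, and 6 reached an unadjusted p under 0.05, all lower in susceptible mice, against 3.06% of all genes. The female median was -0.11 (3 of 15 higher) and the male median -0.63 (2 of 15 higher). Aldh1a2, the retinoic acid synthesising enzyme of the leptomeninges, was 3.55, 3.50, 1.91, 3.39 and 1.74 CPM in susceptible libraries, and its lowest, median and highest control values were 3.90, 4.75 and 6.91 CPM. The groups did not overlap (-0.88 ± 0.24; chromosome 9, 71215789 to 71296243), and the same held for the complement inhibitor Serping1 (-0.66 ± 0.18), at 4.46, 3.03, 4.37, 4.71 and 2.54 CPM against 4.81 to 7.25 CPM. The collagen gene Col1a2 (-0.41 ± 0.15), the GABA transporter Slc6a13 (-0.66 ± 0.27), the organic anion transporter Slc22a6 (-0.81 ± 0.33) and the small proteoglycan Fmod (-0.74 ± 0.32) were the others. All 6 stood at an edgeR adjusted p of 0.807.

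The summed level of the 15 meningeal genes was 390, 329, 293, 317 and 315 CPM in susceptible libraries, and its lowest, median and highest control values were 273, 408 and 511 CPM. Control male 1 and control female 4, the 2 libraries with most Oxt, had the lowest sums among controls, at 275 and 273 CPM. Without both, the median of the list was -0.64, and without any 1 library it lay between -0.58 and -0.29. How much membrane remained on each piece of tissue was not tested.

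Astrocyte markers had lower estimates in 15 of 19 genes (median -0.05), and Gfap, Aqp4 and Apoe reached an unadjusted p under 0.05. Over all genes 47.4% had higher estimates, and 3.06% were lower at that p. Gfap, the intermediate filament of reactive and fibrous astrocytes, was 103 and 83.0 CPM in susceptible females and 103, 109 and 92.7 CPM in susceptible males, against a lowest value of 107, a median of 124 and a highest of 153 CPM in controls. Susceptible male 3 alone lay within the control range (-0.34 ± 0.10; chromosome 11, 102887336 to 102900912; edgeR adjusted p = 0.807). The water channel gene Aqp4 differed by -0.16 ± 0.05 and the lipid carrier Apoe by -0.17 ± 0.06. The glutamate transporters Slc1a2 (0.01 ± 0.11) and Slc1a3 (-0.01 ± 0.06), picked after their values were seen, had estimates near 0. The summed level of the list was 9817 to 11416 CPM in susceptible libraries (median 10363). In control libraries it was 10455 to 11166 CPM (median 10972). The ranges overlapped, and the susceptible median lay below the lowest control.

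Subunits of the GABA-A receptor, the chloride channel opened by GABA, had higher estimates in 12 of 14 genes (median 0.12), with Gabrb2 (0.25 ± 0.10) and Gabra5 (0.18 ± 0.08) at an unadjusted p under 0.05, against 2.75% of all genes, of which 47.4% had higher estimates. The female median was -0.084 (6 of 14 higher) and the male median 0.24 (11 of 14 higher). The female effect was below the male one at an unadjusted p under 0.05 in 5 of 14, against 6.07% of all genes, and above it in 2. Gabrb2 was 113 and 97.2 CPM in susceptible females and 196, 197 and 177 CPM in susceptible males, against 127 and 107 CPM in control females and 129 to 159 CPM in control males. Its male groups did not overlap, and the females overlapped.

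Myelin genes had higher estimates in 18 of 23 (median 0.06), oligodendrocyte precursor genes in 10 of 11 (median 0.11), microglial genes in 12 of 17 (median 0.01) and endothelial and pericyte genes in 11 of 22 (median 0.00). Of these 4 lists, the microglial receptor P2ry12 (0.19 ± 0.08; 1 of 17) and the endothelial glucose transporter Slc2a1 (0.12 ± 0.05; 1 of 22) were the genes at an unadjusted p under 0.05. Over all genes 2.75% were higher at that p. Cytosolic ribosomal protein genes had lower estimates in 36 of 48 (median -0.06). The eighth of all genes with the shortest exon length also had a median of -0.06, and 47.4% of all genes had higher estimates. Of the 48 ribosomal genes, Rps29 (-0.23 ± 0.07), Rpl8 (-0.12 ± 0.04) and Rpl11 (-0.13 ± 0.05) reached an unadjusted p under 0.05. Over all genes 3.06% were lower at that p. Reads of such genes can be shared with near-identical pseudogenes. Genes of the heat shock and unfolded protein response had higher estimates in 10 of 18 (median 0.02), with the chaperone Dnajb9 at 0.15 ± 0.06.

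Estimates in lists of neighbouring regions leaned to 1 side, while the summed levels of these lists overlapped between the groups. The thalamic sum was 235 to 440 CPM in susceptible (median 340) and 279 to 872 CPM in control libraries (median 314). All 12 thalamic genes had lower estimates in susceptible mice (median -0.53), while 47.4% of all genes had higher ones. At an unadjusted p under 0.05, 1 of the 12 was lower, against 3.06% of all genes. Among the 12, the signalling regulator Rgs16 (-1.08 ± 0.41) was 4.91 to 10.5 CPM in susceptible and 6.76 to 39.9 CPM in control libraries, with the highest value in control male 1. Without the 2 controls over 50 CPM of Oxt the thalamic median was 0.09, and that of 6 other hypothalamic peptide genes was 0.86, against -0.59 with them. Cortical and hippocampal genes had lower estimates in 12 of 14 (median -0.31), and 0 of 14 reached an unadjusted p under 0.05. Of 20 striatal genes 18 were higher (median 0.11), against 47.4% of all genes, and 0 of 20 reached an unadjusted p under 0.05. The striatal median turned to -0.10 without the 2 controls rich in Oxt and to -0.12 without the 2 females over 500 CPM of Slc17a7.

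Mitochondrial transcripts took 7.37% and 6.20% of counts in susceptible females and 4.82%, 5.44% and 5.19% in susceptible males. Their lowest and highest control shares were 4.57% and 6.17%. The mean difference was 0.380 percentage points (5.81% ± 1.01 in susceptible and 5.43% ± 0.657 in control libraries; SD, n = 5 and 6; exact 2-sided permutation within sex, p = 0.333, smallest possible 0.00476). The difference was -0.0119 points without susceptible female 2, 0.208 without control male 4 and 0.626 without susceptible male 1. Of 13 mitochondrially encoded genes 11 had higher estimates (median 0.10), against 47.4% of all genes. Only mt-Nd4l, a complex I subunit, reached an unadjusted p under 0.05 (0.49 ± 0.17), against 2.75% of all genes on the higher side. Its values were 28.7, 26.2, 15.4, 30.6 and 22.2 CPM in susceptible and 12.5 to 19.3 CPM in control libraries.

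The 9 left-out libraries, 5 susceptible (3 female, 2 male) and 4 control (3 female, 1 male), share no library with the 11. The same comparison was made there, an analysis chosen after seeing the data. Median summed levels in susceptible and control libraries were 0.941 and 34.9 CPM for lateral hypothalamic genes. They were 729 and 1977 CPM for choroid plexus and ependymal genes, and 8596 and 11318.5 CPM for myelin genes. The ranges overlapped, and the part of tissue content in the estimates of these 9 libraries was not tested. In them edgeR called 0 of 14679 genes (0%; smallest adjusted p = 0.637), and 1149 genes (7.83%; 3.9% higher, 3.93% lower) had an unadjusted p under 0.05. Estimates were positive for 52.9% of genes. DESeq2 called 13 genes and limma voom 0, with 1190 and 1057 at an unadjusted p under 0.05. The count of 1149 became 697 without control female 3, 712 without susceptible female 1 and 716 without susceptible male 2. Of the 14410 genes in both fits, 52.8% had estimates of the same sign, and so had 54.9% of the 839 genes with p under 0.05 in the kept libraries. The count with p under 0.05 in both was 72, which is 8.58% of the 839 from the kept and 6.32% of the 1139 from the left-out libraries, near the backgrounds of 7.83% and 5.81%.

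Of these 72 genes 57 had the same sign, 37 higher and 20 lower in susceptible mice, and 15 had opposite signs. DESeq2 gave 65 of 74 with the same sign and limma voom 201 of 213, and 48 and 43 of the 57 genes were among them. Leaving out 1 kept library moved the 57 by more than 1.5 times in 6 cases: to 125 without control female 4, 122 without susceptible female 5, 94 without control male 4, 33 without control female 5, 32 without control male 3 and 31 without susceptible male 4. The following were picked from the 57 after their values were seen. Sgk1 was 150, 158 and 128 CPM in left-out susceptible females and 167 and 239 CPM in left-out susceptible males, against 109, 103 and 77.8 CPM in left-out control females and 122 CPM in the left-out control male. The groups did not overlap there, as in 1.01% of all genes on the higher side, and the log2 fold change was 0.65 ± 0.14 (unadjusted p = 0.000993 in the edgeR fit of these libraries), beside 0.34 ± 0.11 in the kept libraries. Of 27 glucocorticoid-responsive genes in the left-out libraries, 15 had higher estimates (median 0.04), against 52.9% of all genes. At an unadjusted p under 0.05, 4 of them were higher and 1 was lower, against 3.9% and 3.93% of all genes. Gfap was 142, 104, 128, 111 and 152 CPM in left-out susceptible and 234, 168, 204 and 190 CPM in left-out control libraries, with no overlap there, as in 1.33% of all genes on the lower side, unlike in the kept libraries (-0.63 ± 0.14).

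Genes of the meningeal list made up 5 of the 20 lower genes: Aldh1a2 (-0.69 ± 0.23 in the left-out libraries), Col1a2 (-0.28 ± 0.11), Slc6a13 (-0.57 ± 0.25), Slc22a6 (-0.79 ± 0.35) and Fmod (-0.96 ± 0.29). The list holds 15 of the 14410 genes in both fits. In the left-out libraries 8 of the 15 were lower at an unadjusted p under 0.05, against 3.93% of all genes, and 0 were higher. Ptgds, the prostaglandin D2 synthase of meninges, choroid plexus and oligodendrocytes, was 232, 164, 126, 215 and 181 CPM in the kept susceptible libraries and 216 to 302 CPM in the kept controls. It differed by -0.50 ± 0.14 in the kept and by -0.65 ± 0.18 in the left-out libraries. The summed level of the meningeal list was 231 to 332 CPM in left-out susceptible (median 270) and 178 to 437 CPM in left-out control libraries (median 253). The groups overlapped, and the median sum was higher in susceptible mice although 14 of 15 genes had lower estimates.

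Genes higher in both sets included the intramembrane protease Sppl2a (0.18 ± 0.05 in the kept and 0.20 ± 0.07 in the left-out libraries) and the phosphoinositide phosphatase Inpp5f (0.19 ± 0.06 and 0.29 ± 0.08). They also included the phospholipid enzyme Cept1 (0.21 ± 0.07 and 0.32 ± 0.11), the surface protein Cd47 (0.14 ± 0.05 and 0.27 ± 0.08), which restrains phagocytes, and cyclin C, Ccnc (0.24 ± 0.08 and 0.21 ± 0.08).

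**Figure D4:**
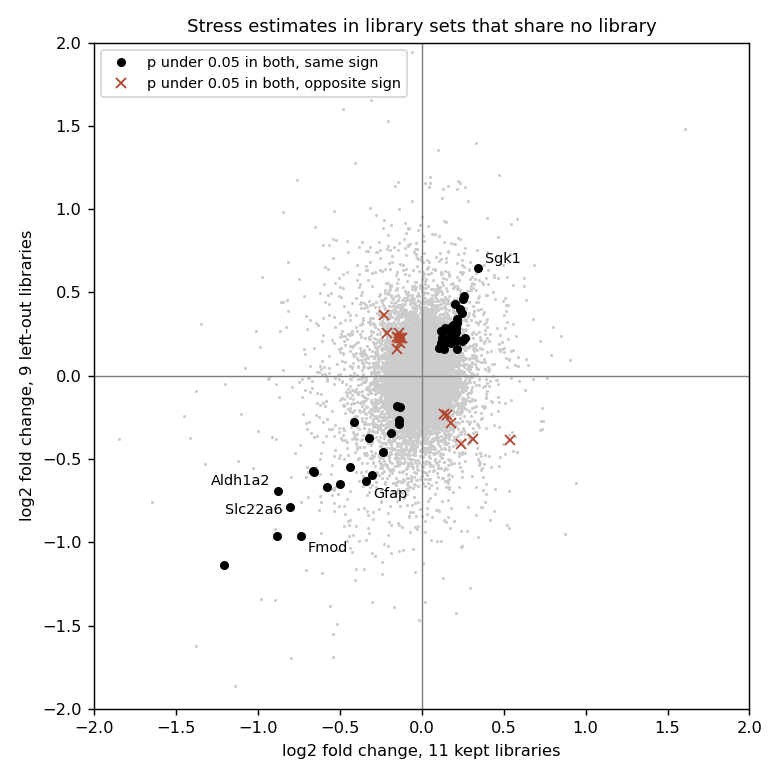
Log2 fold change of susceptible over control mice in the 11 kept libraries on the x axis and in the 9 left-out libraries on the y axis for the 14410 genes in both fits, of which 6 lie outside the plotted range. Black points have an unadjusted p under 0.05 in both sets with the same sign (57 genes) and red crosses with opposite signs (15 genes). Sgk1 lies at 0.34 and 0.65, and the lower left holds meningeal genes such as Fmod.

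The difference of the stress effect between kept and left-out libraries was tested in 1 fit of all 20 libraries with sex as a covariate. Of 14979 genes, edgeR called 0 (0%; smallest adjusted p = 0.768), and 919 (6.14%; 2.81% positive, 3.32% negative) had an unadjusted p under 0.05, against 749 by chance, and 48.2% of all estimates were positive. DESeq2 and limma voom also called 0, with 940 and 1067 at an unadjusted p under 0.05. That count was 486 without susceptible female 1. The smallest p-values, all at an edgeR adjusted p of 0.768, belonged on the positive side to the carboxypeptidase gene Cpm (0.68 ± 0.17), the corepressor subunit Rcor3 (0.57 ± 0.14), the calcium channel Itpr2 (0.44 ± 0.12), the potassium channel Kcnh5 (0.86 ± 0.24) and Erbin (0.39 ± 0.11). On the negative side they belonged to the RNA export factor Nxt1 (-0.64 ± 0.16), the mitochondrial iron-sulphur protein Cisd1 (-0.39 ± 0.10), the phosphatase subunit Ppp2cb (-0.39 ± 0.10), Mypop (-0.52 ± 0.13) and Wdr83os (-0.55 ± 0.14).

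Several lists stood apart between the 2 sets as a description. Cytosolic ribosomal protein genes had higher estimates in 12 of 48 in the kept and in 47 of 48 in the left-out libraries, with medians of -0.06 and 0.16. Over all genes 47.4% and 52.9% had higher estimates. In the left-out libraries 1 of the 48 was higher at an unadjusted p under 0.05, against 3.9% of all genes. Their summed level there was 6709 to 9829 CPM in susceptible libraries, highest in susceptible female 1, and 7048 to 7312 CPM in controls. Nuclear genes of oxidative phosphorylation had medians of -0.02 and 0.13, subpallial GABA neuron genes 0.08 and 0.46, and thalamic genes -0.53 and 0.16. The meningeal list had medians of -0.43 and -0.37, with 2 and 1 higher estimates among 15.

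**Figure D5:**
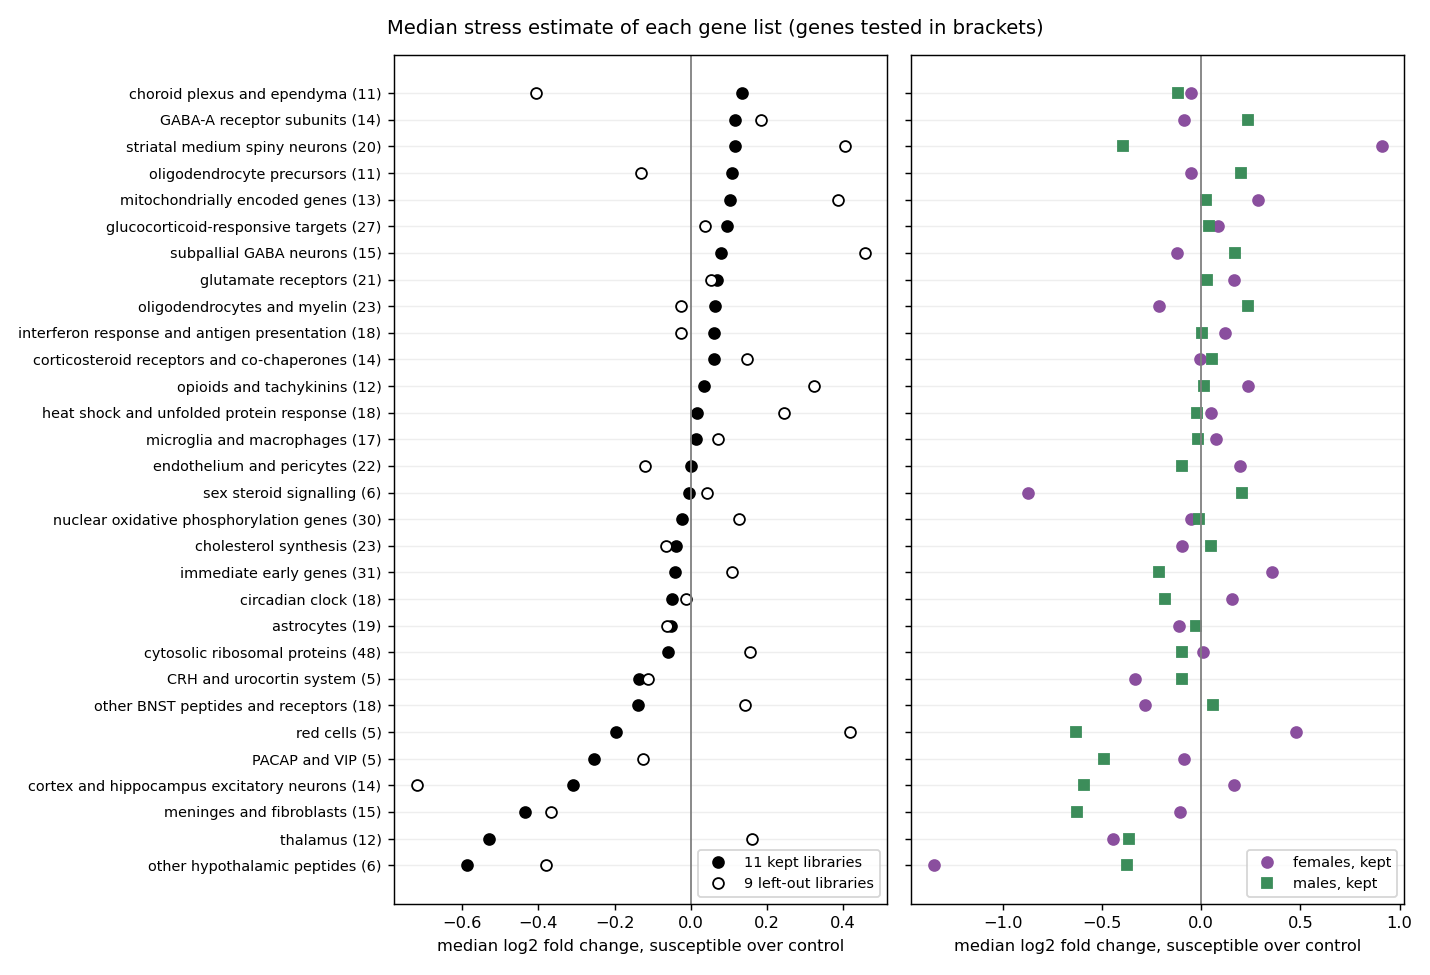
Median log2 fold change of susceptible over control mice for each gene list, on the left in the 11 kept (filled) and the 9 left-out libraries (open), and on the right in females (purple circles) and males (green squares) of the kept libraries. The meningeal list is at -0.43 and -0.37 on the left, and the striatal list is at 0.91 in females and -0.39 in males on the right.

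Female and male effects were then compared within the 11 libraries, which leaves 2 susceptible against 2 control females and 3 susceptible against 4 control males. Striatal genes showed the widest gap: 19 of 20 had higher estimates in susceptible females (median 0.91) and 0 of 20 in susceptible males (median -0.39), against 48.8% and 47.6% of all genes. The estimated difference was positive for 51.1% of all genes. In 19 of the 20 the difference had an unadjusted p under 0.05 with the female effect above the male one, against 6.95% of all genes. The summed striatal level was 7103 and 8616 CPM in susceptible females and 4195 and 4714 CPM in control females, with no overlap. It was 3768, 5990 and 4868 CPM in susceptible males and 4957, 6771, 5891 and 7312 CPM in control males, which overlapped. Drd2 was 148 and 172 CPM in susceptible against 81.4 and 91.6 CPM in control females.

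Over all 14931 genes tested for this difference, edgeR called 0 (0%; smallest adjusted p = 0.259), while 1944 genes (13%) lay under 0.05 before adjustment, where chance alone gives 747. Of these, 1038 (6.95%) were positive and 906 (6.07%) negative. By DESeq2 the calls numbered 178 and by limma voom 0, and 1918 and 2327 genes lay under 0.05 before adjustment. Taken alone, females had 1432 genes at an unadjusted p under 0.05 (9.59%; 4.97% higher, 4.62% lower) and males 1547 (10.4%; 5.1% higher, 5.26% lower), with 0 called by edgeR in each (0%). The count of 1944 became 821 without control female 4, 1046 without susceptible female 5 and 2938 without control female 5, and edgeR called 17 genes without susceptible female 2.

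The genes named for this difference all stood at an edgeR adjusted p of 0.259. Cd163, a scavenger receptor of perivascular macrophages, had groups that did not overlap in either sex and lay in opposite order, as in 2.44% of all genes, at 9.40 and 8.88 CPM in susceptible against 3.28 and 5.38 CPM in control females, and at 3.96 to 4.30 CPM in susceptible against 5.51 to 9.90 CPM in control males. Ide, the insulin-degrading enzyme, was 95.7 and 118 CPM in susceptible and 61.5 and 59.5 CPM in control females, beside 55.9 to 62.0 CPM in susceptible and 52.1 to 56.1 CPM in control males.

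Further positive differences (female minus male) were those of the glycosyltransferase Mgat5b (0.75 ± 0.13) and of the protocadherins Pcdhgb6 (0.84 ± 0.14) and Pcdhga3 (1.03 ± 0.19), which share exons of 1 gene cluster, so that their reads cannot be told apart with certainty. Negative ones were those of Coprs (-1.03 ± 0.19), the parathyroid hormone 2 receptor Pth2r (-2.34 ± 0.43), Tmem200c (-0.90 ± 0.18) and the vesicle priming factor Cadps (-0.51 ± 0.10).

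Immediate early genes had higher estimates in 24 of 31 in females (median 0.36) and in 4 of 31 in males (median -0.21). Over all genes 48.8% in females and 47.6% in males had higher estimates. Clock genes had them in 18 of 18 in females (median 0.16) and in 3 of 18 in males (median -0.18). Myelin genes ran the other way, with 1 of 23 higher in females (median -0.21) and 21 of 23 in males (median 0.24). Summed levels of the groups overlapped in both sexes for immediate early genes and in neither sex for clock genes. Myelin sums overlapped in males, and were 6746 and 6664 CPM in susceptible against 9022 and 6782 CPM in control females. At an unadjusted p under 0.05 for the difference, 2 of 31 immediate early, 5 of 18 clock and 0 of 23 myelin genes were positive, and 0, 0 and 3 negative, against 6.95% and 6.07% of all genes. The striatal, hypothalamic and cortical markers that moved between these libraries are given above, and their part in these sex differences was not tested.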

How the data were processed

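Per the submitters' processing notes, reads were aligned with HISAT2 to mm10 and counted per gene with featureCounts. For tool versions, annotation, strandedness and multiply mapped reads, nothing is given in the sources used here. The deposited values are raw counts per gene, 1 column for each of 20 libraries. CPM (counts scaled to a common library total) were computed from the library totals. Coordinates and names come from GENCODE M21 (GRCm38), in which 19206 of 19214 genes were matched. The fits used edgeR 4.0.16 in R 4.3.3 (filterByExpr, TMM, robust quasi-likelihood test, Benjamini-Hochberg threshold 0.05) on the 11 kept libraries, with sex as covariate. A sex-by-group fit gave sex differences, and a fit of all 20 libraries the difference between kept and left-out libraries. Alternatives used DESeq2 1.42.0, limma 3.58.1 and sva 3.50.0, and the code was tested on simulated data.

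A reported ± is a standard error of a log2 fold change unless marked SD. The genes named were the 5 smallest p-values in each direction of each comparison at a mean of at least 1 CPM, a set of stress and BNST genes whatever their result, and up to 3 members of each list with the smallest p-values. Further list members under an unadjusted p of 0.05, regional and astrocyte markers, and genes shared with the left-out libraries were added after their values were seen. Of the genes this rule names, 1 is not reported here. The libraries, the genes and the 31 lists were chosen with earlier results of these data known. Replicate numbers occur in every group but are not known to pair the mice, so same-numbered libraries were not taken as pairs. Their deviations correlated at -0.41 to 0.65, and at 0.04 to 0.65 where both libraries were kept. These few correlations do not settle whether the numbers form pairs.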

Additional observations from a re-analysis of the deposited data

Results flagged for a closer look

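In 14 of 170 groups screened (85 genes, susceptible and control kept libraries apart), 1 library stood far from the others by Dixon's criterion, which chance meets in about 1 of 20 groups. Among susceptible libraries, female 5 had Bdnf of 17.2 CPM (next 5.83), Slc17a7 of 671 CPM (next 131) and Inpp5f of 192 CPM (next 235), and male 4 had Rps29 of 39.5 CPM (next 31.7). Among control libraries, female 5 had Crhbp of 12.4 CPM (next 7.05), Bdnf of 14.9 CPM (next 7.55) and Slc17a7 of 621 CPM (next 222). Control male 4 had Fkbp5 of 65.9 CPM (next 44.3) and Tsc22d3 of 116 CPM (next 76.9). Control male 1 had Rgs16 of 39.9 CPM (next 17.4) and Kcnh5 of 9.34 CPM (next 6.64). Control male 3 had Prkcd of 23.2 CPM (next 73.1) and mt-Nd4l of 12.5 CPM (next 16.8), and control male 2 had Sst of 101 CPM (next 124).

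For 8 genes the susceptible and control libraries did not overlap in either sex and lay in opposite order in females and males, a pattern that 364 of all 14931 genes showed (2.44%). The difference of log2 fold changes, female minus male, was -1.60 for Crh (edgeR adjusted p = 0.277). It was 2.04 for Cd163, 0.84 for Pcdhgb6 and 0.75 for Mgat5b. It was -2.34 for Pth2r, -1.03 for Coprs, -0.90 for Tmem200c and -0.51 for Cadps. These 7 stood at an edgeR adjusted p of 0.259, so none passed the test of the difference, and 7 of the 8 genes were named for a small p in that comparison.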

How the results depend on the processing

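The stress comparison gave 0 calls in edgeR and limma voom under every setting run, and 1 in the DESeq2 test. Its 843 genes at an unadjusted p under 0.05 became 2122 with limma voom, 1570 with 1 surrogate variable, 487 with Ttr of at most 50 CPM and 2017 with Oxt of at most 50 CPM (chosen after seeing the data), and 530 to 1340 with 1 library left out. The sex difference gave 178 calls with DESeq2 and 0 to 17 with 1 library left out, and its 1944 genes became 821 to 2938. The kept against left-out difference gave 0 calls throughout and 486 to 1255 genes with 1 library left out. The 9 left-out libraries gave 13 calls with DESeq2 and 697 to 1670 genes with 1 library left out. The mitochondrial difference ranged from -0.0119 to 0.626 points. With the replicate number as a block the calls were 0, 2 (sex difference) and 0, with 1132, 1851 and 1054 genes at an unadjusted p under 0.05, and the numbers are not known to pair the mice.

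Of 85 gene results, 65 kept their sign under every setting, and 20 did not, none of which had passed a test; the cause was not tested. The reversed log2 fold changes were, with all 20 libraries, Crhr2 0.18, Esr1 0.19, Fkbp5 -0.074, Gabrb2 -0.015, Mc4r 0.14, Nr3c1 -0.034, Pdyn 0.094, Per1 0.013, Prkcd 0.29, Tac1 0.091 and Tac2 0.47. With Oxt of at most 50 CPM they were Adcyap1 0.61, Egr1 -0.11, Esr1 0.44, Fkbp5 -0.025, Fos -0.035, Nr3c2 -0.10, Penk -0.019 and Tac2 0.90, and with Slc17a7 of at most 500 CPM Adcyap1r1 0.026, Crhr2 0.015, Fkbp5 -0.036 and Tac2 0.14. With Ttr of at most 200 CPM they were Adcyap1 0.012, Bdnf 0.17, Esr1 0.0098, Fos -0.034 and Tac2 0.031, and with Ttr of at most 50 CPM Crhr2 0.026, Per1 0.11 and Prkcd 0.024. Limma voom gave Adcyap1 0.061, Egr1 -0.020, Esr1 0.16, Fos -0.11, Mc4r 0.073 and Tac2 0.82. Without the sex covariate Bdnf was 0.060, Per1 0.026 and Tac2 0.090, and the replicate block gave Fos -0.023 and Tac2 0.13. The kept contrast in the fit of 20 gave Bdnf 0.0048 and Per1 0.023, 1 surrogate variable Per1 0.0060, and the filter of 1 CPM in 5 libraries Per1 0.0029.

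With 1 library left out, values spanned 0 for Fkbp5 (-0.075 to 0.18), Tsc22d3 (-0.0084 to 0.28), Per1 (-0.14 to 0.084), Nr3c2 (-0.023 to 0.14), Crhr2 (-0.32 to 0.047), Adcyap1 (-0.36 to 0.38), Adcyap1r1 (-0.11 to 0.030), Fos (-0.13 to 0.18), Egr1 (-0.044 to 0.29), Bdnf (-0.44 to 0.17), Tac2 (-0.43 to 0.51), Npy (-0.23 to 0.0088) and Esr1 (-0.37 to 0.11). The kept libraries number 5 against 6, and their totals of 14637636 to 17862840 counts limit the precision for genes of few counts.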
